A study of Mus musculus with 6 samples.

Results

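Tail tip fibroblasts are connective tissue cells grown from the tip of the mouse tail, and here 1 library of them given an adenovirus with Cre recombinase (Ad-Cre) was set against 1 library given an adenovirus with green fluorescent protein (Ad-GFP). Genes were kept where at least 1 of these 2 libraries held 20 reads or more, which left 15213 of the 57180 genes in the count table. The series holds 6 libraries of polyadenylated RNA, with 1 Ad-GFP and 1 Ad-Cre library for each of 3 fibroblast origins (lung, cardiac and tail tip). All cells were grown in DMEM with 10% serum and lysed in TRIzol at 48 h, and the labels give wild type (WT) as the genotype of both tail tip libraries. Ad-GFP is the control, and Ad-Cre is what the submitters call the GATA4 knockout; the labels name neither a floxed allele nor the number or age of the animals the cells came from. The tail tip Ad-GFP library held 31004119 counts and the Ad-Cre library 32316417.

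Cre recombinase joins DNA across a pair of loxP sites, so what it deletes depends on the sites a cell carries. GATA4 is a zinc finger transcription factor of heart, gut and gonad, and fibroblasts of the skin and tail are not a tissue it is known for. Adenoviral vectors deliver a gene to dividing and resting cells without inserting it into the genome, and the Ad-GFP library carries the vector too.

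The targeted gene was nearly unread in these cells. Gata4 had 1 read in the tail tip Ad-GFP library and 2 in the Ad-Cre library, both under the floor of 3 counts, which is 0.0941 CPM (counts per megaread of scaled library size) and 0.0898 CPM. In the other origins it was read in both libraries of each pair, at 14.8 CPM with Ad-GFP and 19.1 CPM with Ad-Cre in lung fibroblasts, and at 147 and 149 CPM in cardiac fibroblasts. The tail tip pair therefore holds no measure of a loss of Gata4, and whether recombination took place was not measured. Of the other 7 GATA factors and FOG cofactors 4 reached 20 reads, with a median log2 ratio of -0.12 and none past 2-fold; Gata2, a factor of blood and vessel cells, had 132 and 142 reads.

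The libraries carried the profile of fibroblasts. All 12 fibroblast markers were read in both, none differed by 2-fold, and their summed level was 20993 CPM with Ad-GFP and 19694 CPM with Ad-Cre. Among other cell types, 16 macrophage and leukocyte markers summed to 5646 and 4745 CPM, 10 endothelial markers to 32.3 and 30.2 CPM, and 14 keratinocyte and epithelial markers to 8.03 and 9.04 CPM. The macrophage sum was 30.8 and 21.0 CPM in the lung pair and 1113 and 667 CPM in the cardiac pair, so the tail tip libraries held the most of that RNA. Xist, which is read from an inactive X chromosome, had 33128 and 35270 reads, and the Y-linked genes Ddx3y (509 and 460 reads) and Eif2s3y (345 and 293 reads) were read beside it in both libraries. In bulk RNA, fewer cells of a type and less RNA per cell cannot be told apart.

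With 1 library in each group no difference below has a replicate check, no p-value is given, and the 95% intervals cover counting error only, in reads without molecular identifiers. "Higher" and "lower" mean the Ad-Cre library against the Ad-GFP library, and a 2-fold difference means a log2 ratio of at least 1 in size, computed with a prior count of 2. By that rule 213 of 15213 genes differed (1.4%), 88 of them higher (0.578%) and 125 lower (0.822%). The 2 libraries were close: the median log2 ratio was 0.00 and the SD over genes 0.32, against an SD of 0.41 in the lung pair and 1.03 in the cardiac pair. The corresponding share of genes past 2-fold was 3.37% of 13880 in lung and 17.9% of 15550 in cardiac fibroblasts. Counting error takes up more of the spread at low reads. Of 2109 genes whose higher library held 20 to 49 reads, 78 were higher and 76 lower by 2-fold, and of 11924 genes with at least 100 reads, 3 were higher and 31 lower.

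**Figure D1:**
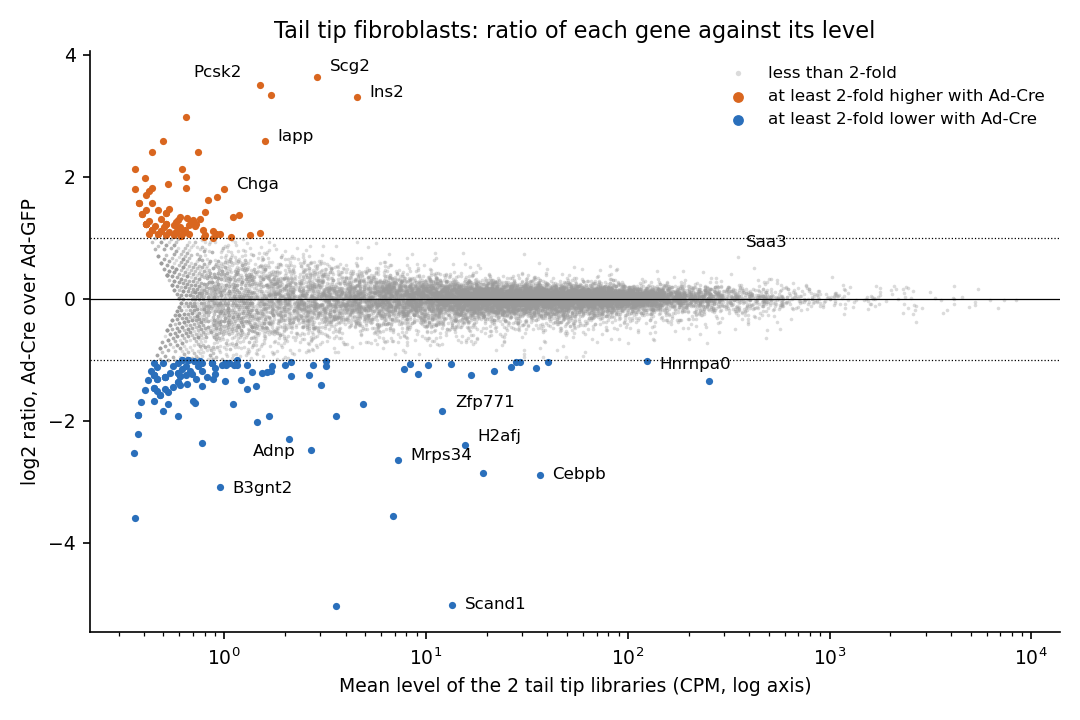
Each point is 1 of the 15213 genes of the tail tip pair, placed by its mean level in the 2 libraries (CPM, log axis) and its log2 ratio of Ad-Cre over Ad-GFP. Dotted lines mark 2-fold; the higher genes lie at low levels, with Scg2, Pcsk2 and Ins2 at the top, while the lower genes reach further up in level and include Cebpb and Scand1.

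The genes furthest above the rest were hormones of the pancreatic islet and proteins of the dense-core granule. Beta cells of the islet make insulin as a prohormone, pack it with granins into granules and cut it there with prohormone convertases, and neurons and other endocrine cells share much of that machinery. Of 44 genes on an islet and granule list, 23 reached 20 reads, 12 were higher by 2-fold and 0 lower, with a median log2 ratio of 1.38 beside 0.00 over all genes tested. A gene that was low with Ad-GFP entered this count only where Ad-Cre lifted it past 20 reads, so the count and the median describe the genes that passed and not the list.

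Among the hormones, Ins2, an insulin gene, had 25 reads with Ad-GFP and 279 with Ad-Cre, or 0.784 and 8.36 CPM, a ratio of 10.7 (95% interval 7.07 to 16.8). Iapp, which encodes the amylin that beta cells release with insulin, had 13 and 93 reads (ratio 6.83, interval 3.81 to 13.3). Ins1, the other mouse insulin gene, had 6 and 35 reads (ratio 5.57, interval 2.32 to 16.2). All 3 were low in both libraries in absolute terms and higher with Ad-Cre. The hormones of the other islet cells were not read to that extent: Gcg (glucagon) had 0 reads with Ad-GFP and 1 with Ad-Cre, Sst (somatostatin) had 1 in each, and Ppy and Pyy had none. Ghrl, the ghrelin gene, had 26 and 25 reads.

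Of the granule proteins, Scg2, a granin and the source of secretoneurin, had 12 reads with Ad-GFP and 181 with Ad-Cre, which is 0.376 and 5.42 CPM and a ratio of 14.4 (interval 8.05 to 28.4). Pcsk2, a prohormone convertase, had 6 and 94 reads (ratio 14.96, interval 6.62 to 41.8). Scg3, a granin that binds the granule membrane, had 3 and 30 reads (ratio 9.55, interval 2.97 to 48.9). Smaller differences were seen for Chga and Chgb, the chromogranins. Chga had 13 and 53 reads (ratio 3.89, interval 2.09 to 7.79), and Chgb had 20 and 58 (ratio 2.77, interval 1.64 to 4.86). Other genes of the same machinery stood level: Cpe, a carboxypeptidase, had 3777 and 3393 reads, Pcsk1, the other prohormone convertase, 295 and 298, Ptprn, a granule membrane protein, 2992 and 2891, and Vgf, a granin-like precursor, 98 and 95.

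Among the glucose sensing genes of the beta cell, G6pc2, the islet glucose-6-phosphatase subunit, had 3 reads with Ad-GFP and 40 with Ad-Cre (ratio 12.7, interval 4.06 to 64.3), and Abcc8, the sulfonylurea receptor of the potassium channel, had 6 and 43. Kcnj11, the pore of that channel, had 0 and 3 reads. Among islet transcription factors, Mlxipl, a glucose-responsive factor also made by liver and fat, had 3 and 26 reads and Pax6 had 4 and 23. Others stayed under 20 reads and were higher in number with Ad-Cre: Neurod1 had 1 and 15 reads, Isl1 0 and 8, Pdx1 0 and 7, Nkx6-1 1 and 7, and Insm1 1 and 6.

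The 15 islet cell markers, a shorter list of defining genes, summed to 3.20 CPM in the tail tip Ad-GFP library and 25.96 CPM in the Ad-Cre library, and 12 and 14 of them had a read. In the lung pair the order was opposite, with 14.95 CPM under Ad-GFP and 1.59 CPM under Ad-Cre, and in the cardiac pair it was 5.05 and 2.78 CPM. Ins2 had 148 and 10 reads in lung and 13 and 0 in cardiac fibroblasts. Scg2 had 77 and 7 reads in lung and 48 and 31 in cardiac fibroblasts. So the islet cell markers as a sum had reads in each origin, with the larger sum under Ad-Cre in the tail tip pair and under Ad-GFP in the other pairs. Single markers did not all follow the sums. Ppy had no read in any library, and in cardiac fibroblasts Neurod1 had 0 reads with Ad-GFP and 29 with Ad-Cre. The 8 pancreatic acinar markers, the enzyme-making cells that surround islets, summed to 2.07 and 2.34 CPM in the tail tip pair, and 10 of 19 genes of a longer exocrine list had no read there. Cela1, which tissues other than pancreas make too, was the 1 exocrine gene past 20 reads, at 64 and 67. Neurons share the granule genes, and 10 neuron markers summed to 29.3 and 35.5 CPM. The 4 tested neuron markers were above 0 with a median of 0.44 and none past 2-fold. Tubb3, a neuronal tubulin, had 224 and 321 reads (ratio 1.37, interval 1.15 to 1.63). Under the read minimum Nefl had 0 and 9 reads, Syp 2 and 9 and Elavl3 0 and 1. Snap25 had 4 and 2 reads, Elavl4 15 and 14, and Rbfox3 had none. The source of the islet reads was not tested.

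**Figure D2:**
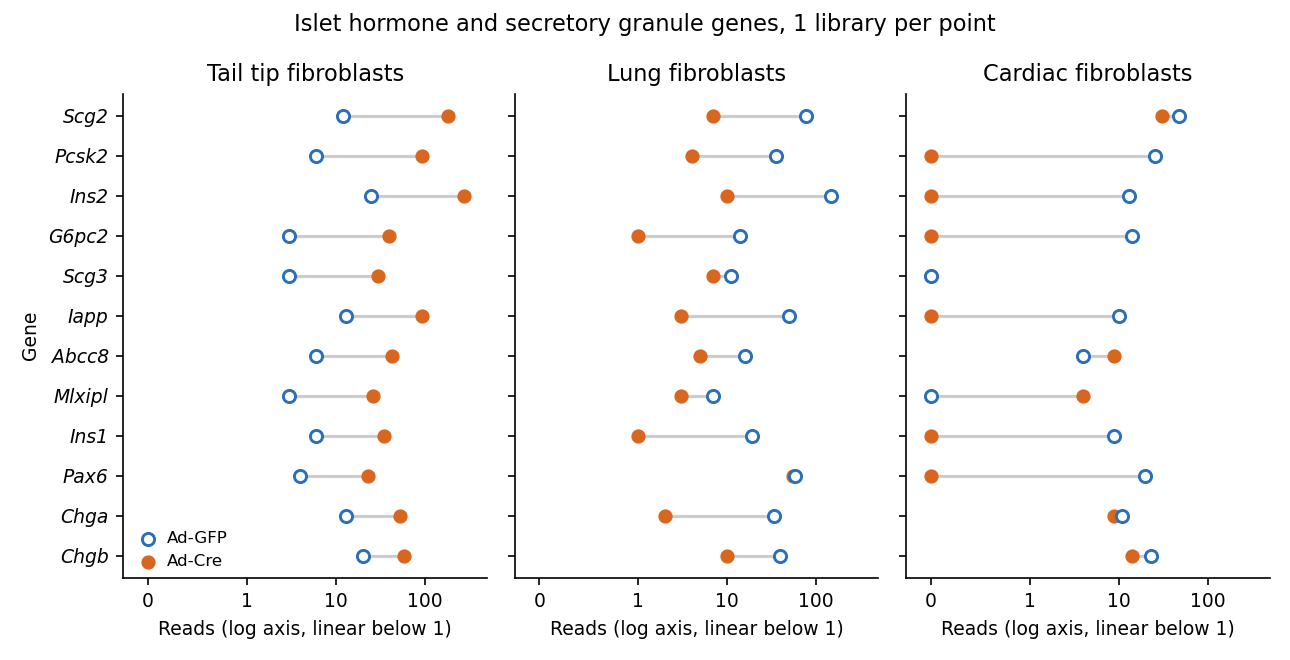
Reads of the 12 islet and granule genes that were at least 2-fold higher in the tail tip pair (log axis, linear below 1), in the Ad-GFP library (open) and the Ad-Cre library (filled) of each origin, with 1 library per point. In tail tip fibroblasts every filled point lies to the right, as for Ins2 at 25 and 279 reads, while in lung fibroblasts every filled point lies to the left. The reads are not scaled for library size. In CPM, Pax6 in lung fibroblasts was 2.01 with Ad-GFP and 2.13 with Ad-Cre.

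Some genes of this group carry a cyclic AMP response element (CRE) close to their start, a motif bound by CREB-type factors. The palindrome TGACGTCA, which reads the same on both strands and was searched with no other motif, was looked for in the 250 bases before the start of each gene in the RefSeq promoter table (GRCm38.p6). It was present for 3 of the 10 higher islet genes that the table holds (Scg2, Chgb and Pax6), for 322 of 10772 genes tested in the pair (2.99%) and in 508 of all 32851 windows (1.55%). Of 41 higher genes in the table, 3 held it, and of 56 lower genes, 1. A gene counted if any of its windows held the motif, and Pax6 has another window without it. The islet genes were picked by their ratios from a list made with these data known, so no enrichment is read from their share. The windows of Scg2 (chr1:79440027-79440276, minus strand) and Chgb (chr2:132781392-132781641, plus strand) are shown because their elements lie at nearly the same distance from the start, at position -68 and -72; capitals mark the CRE.
Scg2: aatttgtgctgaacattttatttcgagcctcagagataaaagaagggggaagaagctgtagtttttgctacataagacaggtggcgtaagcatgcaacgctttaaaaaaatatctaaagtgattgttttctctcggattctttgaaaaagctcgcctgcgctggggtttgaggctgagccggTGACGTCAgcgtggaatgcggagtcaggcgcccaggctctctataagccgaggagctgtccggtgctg
Chgb: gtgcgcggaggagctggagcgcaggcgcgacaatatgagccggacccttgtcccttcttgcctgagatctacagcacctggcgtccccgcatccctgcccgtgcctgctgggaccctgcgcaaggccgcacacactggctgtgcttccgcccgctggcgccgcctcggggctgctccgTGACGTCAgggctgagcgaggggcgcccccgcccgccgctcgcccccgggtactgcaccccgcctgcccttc
A match is a run of letters in the sequence and was not tested for binding.

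Outside the islet list few higher genes had many reads. That list was drawn up with earlier results of these data known, so an overlap with it is not independent. Of the 12 genes whose whole counting interval lay above 2-fold, 10 were on it. The other two were Gm14279, a processed pseudogene with 7 and 36 reads, and Gm42047, a long noncoding RNA with 8 reads under Ad-GFP and 105 under Ad-Cre (ratio 12.5, interval 6.13 to 29.8); both were named after their values were seen. Gm42047 was abundant in lung fibroblasts, at 6877 and 7252 reads. Other genes abundant in the lung libraries were not higher to that extent in the tail tip pair: Il33, an alarmin, had 16 and 17 reads, Msln, a mesothelial surface protein, 6 and 10, and Plac8 6 and 11. Among named genes with at least 50 reads, those next in order after the islet genes were AC125456.1, a processed pseudogene (19 and 54 reads), and Tek, the angiopoietin receptor of endothelial cells (30 and 69 reads). Mrc1, the mannose receptor of macrophages, had 99 and 199 reads (log2 ratio 0.93), although 15 of the 16 macrophage and leukocyte markers were below 0 and their median was -0.26. Spi1, the transcription factor PU.1 of that lineage, had 2769 and 1785 reads (-0.70).

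The largest gains in CPM that reached a log2 ratio of 0.5, a step that 501 genes passed upward (3.29%) and 769 downward (5.05%), were in abundant genes that differed by less than 2-fold. Saa3, an acute phase protein that fibroblasts and macrophages make in inflammation, was at 268 CPM with Ad-GFP and 432 CPM with Ad-Cre (ratio 1.61, interval 1.57 to 1.65). Cemip, a hyaluronan-degrading protein, was at 348 and 493 CPM, and Rgs4, a regulator of G protein signals, at 66.2 and 96.8 CPM. Lcn2, the iron-siderophore binding lipocalin of the acute phase, was at 11.3 and 19.1 CPM. The surface proteins Cd55, which blocks complement, and Cd34 of stromal progenitors were at 44.4 and 63.9 CPM and at 28.8 and 43.6 CPM. Losses of this kind were larger in CPM: Rpl13 was at 593 and 378 CPM, Hnrnpab, an RNA-binding protein, at 309 and 187, Igfbp7 at 336 and 232, and Postn, the matrix protein periostin, at 247 and 157. Rpl13 and Rps2 (578 and 406 CPM) have many near-identical pseudogene copies that share reads, so their values are uncertain.

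On the lower side the differences were larger and in better-read genes. Scand1, a short SCAN domain protein that binds zinc finger factors, had 838 reads with Ad-GFP and 25 with Ad-Cre, or 26.3 and 0.749 CPM, so that Ad-GFP was 35.1 times Ad-Cre (interval 23.6 to 54.6). In lung fibroblasts it had 14 and 17 reads and in cardiac fibroblasts 38 and 10, so only the tail tip Ad-GFP library read it at a high level. The other 18 SCAN domain genes tested were within 2-fold, with a median of 0.02 for all 19. Gm21887, an uncharacterised gene chosen after its values were seen, had 223 and 5 reads.

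Cebpb was the best-read gene among the 15 named lower genes. It encodes C/EBP beta, a leucine zipper transcription factor of the acute phase response, macrophages and early fat cell differentiation. It had 2065 reads with Ad-GFP and 290 with Ad-Cre, which is 64.8 and 8.68 CPM, and Ad-GFP was 7.46 times Ad-Cre (interval 6.59 to 8.46). The Ad-Cre value lay near those of the lung pair, 7.56 and 6.36 CPM, and above those of the cardiac pair, 3.30 and 4.25 CPM, so the Ad-GFP library of the tail tip stood apart from the other 5. Cebpd, its close relative, had 1734 and 883 reads (-1.04). The rest of the tested family were within 2-fold: Cebpa had 1799 and 1408 reads (-0.42), Ddit3, which encodes CHOP, 899 and 870, and Cebpg 1309 and 1279. Of 9 tested genes of the fat cell programme, 0 passed 2-fold, 8 were below 0 and the median was -0.40; Pparg had 122 and 77 reads and Fabp4 347 and 227. Acute phase genes, also known C/EBP targets, lay on both sides of 0. Saa3 and Lcn2 were higher by the values above, and C3, the complement protein, had 6420 and 5278 reads. Of 18 acute phase and NF-kB genes tested, 7 were above 0 and 11 below, with a median of -0.11. Macrophages express Cebpb, and the summed macrophage markers were lower with Ad-Cre by the values above (median log2 ratio -0.26, 15 of 16 below 0); their part in the Cebpb difference was not tested.

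The 250 bases before the Cebpb start (chr2:167688665-167688914, plus strand) and the Scand1 start (chr2:156312705-156312954, minus strand), from the same RefSeq table, are shown because both transcripts are rich in GC (67.2% for Cebpb and 68.4% for Scand1); capitals mark CpG, the dinucleotide that gathers in CpG islands.
Cebpb: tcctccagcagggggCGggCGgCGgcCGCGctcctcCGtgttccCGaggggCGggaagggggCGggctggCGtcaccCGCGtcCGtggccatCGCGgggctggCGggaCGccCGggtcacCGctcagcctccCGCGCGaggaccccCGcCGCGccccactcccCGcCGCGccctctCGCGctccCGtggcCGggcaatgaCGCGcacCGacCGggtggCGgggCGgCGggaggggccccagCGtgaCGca
Scand1: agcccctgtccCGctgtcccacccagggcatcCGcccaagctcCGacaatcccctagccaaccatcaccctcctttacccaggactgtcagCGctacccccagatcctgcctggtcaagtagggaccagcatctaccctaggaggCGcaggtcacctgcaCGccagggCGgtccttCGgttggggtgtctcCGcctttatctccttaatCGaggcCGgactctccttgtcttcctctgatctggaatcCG
The Cebpb window had 41 CpG and 81.6% GC, and the Scand1 window 12 CpG and 61.6% GC. Over the 10772 tested genes with such a window the median was 15.5 CpG and 59.6% GC. Only 56 of the 125 lower genes had a window, and their median was 13 CpG and the same GC. The promoters of these 56 lower genes as a group were thus no richer.

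Families were looked at for some of the other lower genes. B3gnt2, which builds poly-N-acetyllactosamine sugar chains, had 56 and 5 reads (Ad-GFP 11.7 times Ad-Cre, interval 4.74 to 37.5), while the other 4 of its family that were tested were within 2-fold. Mrps34, a protein of the small subunit of the mitochondrial ribosome, had 399 and 65 reads (6.43 times, interval 4.93 to 8.49). It was the 1 lower gene among 29 small subunit genes, whose median was -0.04, and 0 of 49 large subunit genes passed 2-fold. Mrps34 was lower with Ad-Cre in cardiac fibroblasts too, at 254 and 51 reads, but not in lung, at 74 and 117.

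Adnp, a chromatin protein, had 147 and 26 reads, and H2afj, a histone H2A variant, had 840 and 165 (5.33 times, interval 4.51 to 6.34). H2afj was the 1 of 27 histone genes tested that was lower by 2-fold. Zfp771, a zinc finger gene, had 602 and 174 reads and Cox11, an assembly factor of cytochrome oxidase that carries copper, 239 and 74. Kcnk12, a potassium channel of the tandem pore family, had 746 and 329 reads in the tail tip pair and at most 3 in any other library. Among the most abundant genes, Hnrnpa0, an RNA-binding protein, was at 167 and 82.4 CPM and Rps2-ps13, a ribosomal pseudogene, had 11523 and 4759 reads. The value of Rps2-ps13 is uncertain for the reason given above for Rps2.

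**Figure D3:**
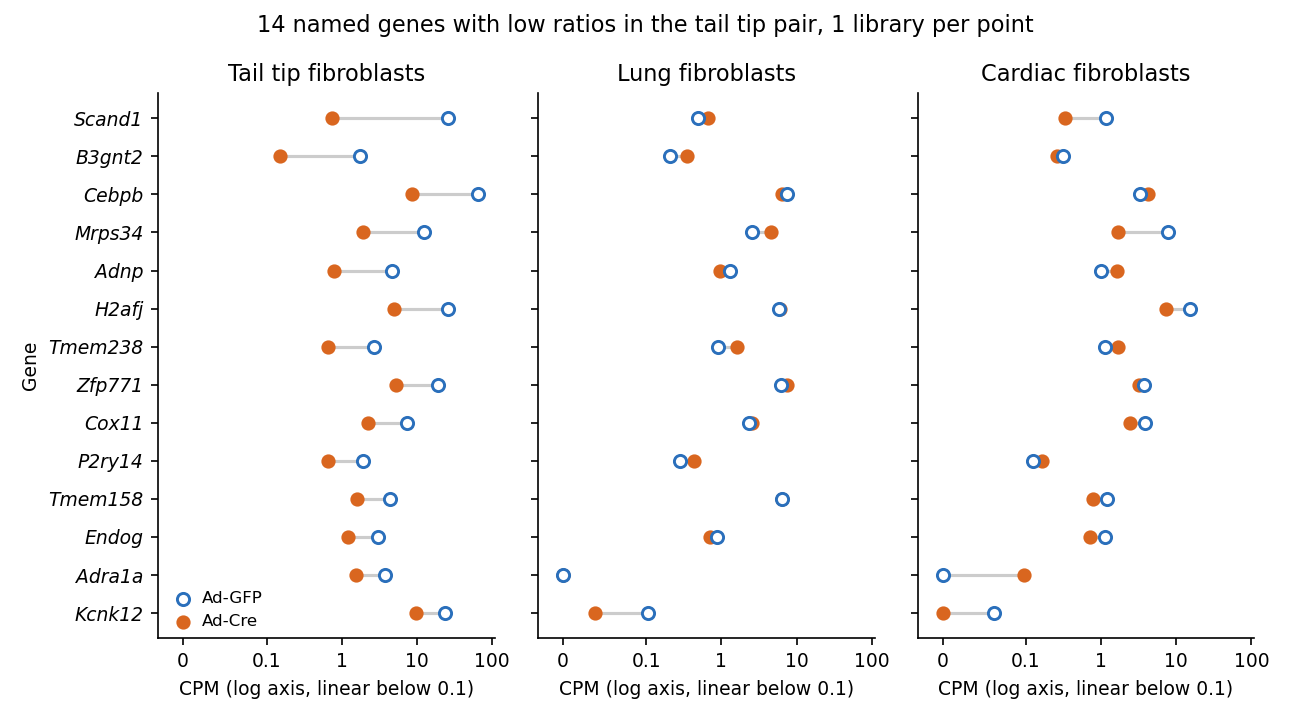
Level (CPM, log axis, linear below 0.1) of 14 of the 15 genes that rank lowest by log2 ratio in the tail tip pair, in the Ad-GFP library (open) and Ad-Cre library (filled) of each origin, with 1 library per point. In the tail tip pair all filled points lie to the left; Scand1, at 26.3 and 0.749 CPM there, was at most 1.17 CPM in the lung and cardiac libraries.

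Beyond the rule, the lower genes differed from all tested genes in GC content and exon number. These properties were known for 110 of the 125 lower genes, 87 of the 88 higher genes and 14987 of the 15213 tested. The medians and shares here are of those genes. The longest annotated transcript of the lower genes had a median GC content of 53.1% against 49.4% over all tested genes, and a median of 2 exons against 7. Single-exon genes made up 40.9% of the lower genes, 29.9% of the higher genes and 12% of all tested. Genes of at least 60% GC made up 26.4% of the lower genes, 3.84% of all tested and none of the higher. Of 53 genes with 65% GC or more, 16 were lower (30.2%), 0 were higher and the median log2 ratio was -0.65. In the next class, 60 to 65%, 13 of 522 were lower (2.49%) and the median was -0.11, and every class below 60% had under 1% of its genes lower. Jund, an AP-1 factor in 1 GC-rich exon, had 1257 and 639 reads, and Nr2f6, an orphan nuclear receptor, had 963 and 444.

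GC content went with lower ratios, and few exons with a wider spread in both directions, but read level was not held fixed in either comparison. Among tested genes with at least 100 reads and known exons, single-exon genes made up 6.88% of all and 39.3% of the 28 lower genes. Only 3 higher genes had that many reads. The part of counting error at low reads in the exon share of the higher genes, and in the spread, was not tested. Among genes under 60% GC, 36 of 1739 with 1 exon were lower (2.07%) and 26 higher (1.495%), with a median log2 ratio of -0.02, against 45 lower (0.355%) and 61 higher (0.481%) of 12673 with more exons, with a median of 0.01. Among genes of 60% GC or more, 9 of 59 with 1 exon were lower (15.3%) against 20 of 516 with more (3.88%), and none was higher in either class. The gradient was not the same in each pair. From the lowest to the highest GC class the median log2 ratio went from 0.08 to -0.65 in tail tip, from 0.30 to -0.69 in cardiac and from -0.18 to 0.18 in lung fibroblasts. Each library was made once, so a difference between these 2 libraries in preparation and a difference between the cells cannot be told apart.

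**Figure D4:**
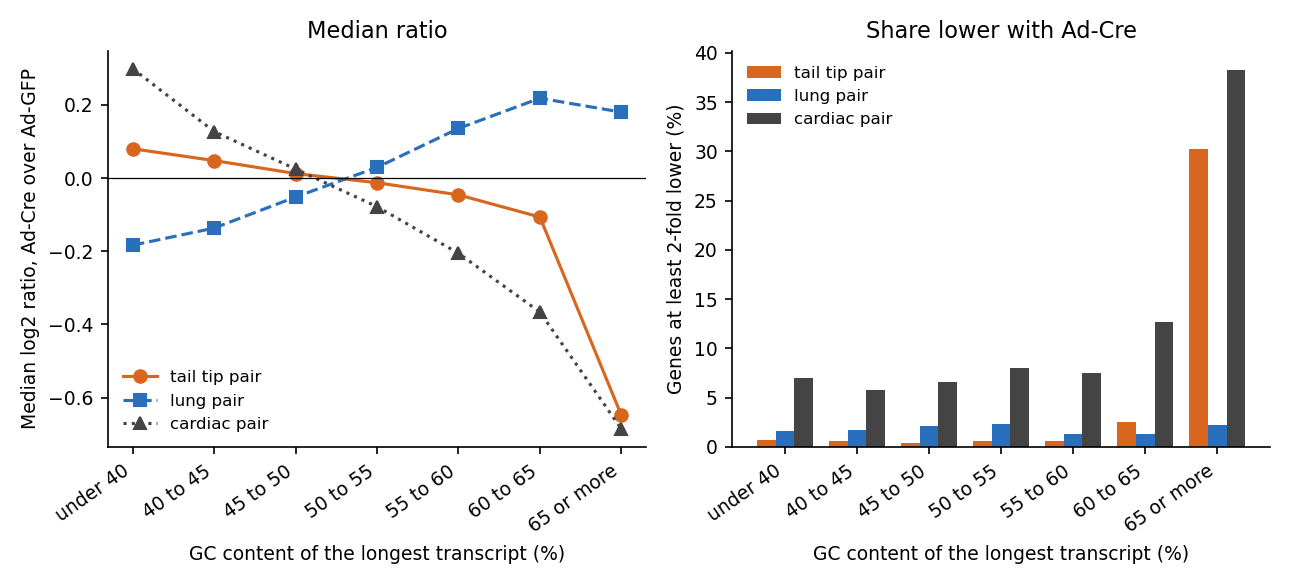
Median log2 ratio of Ad-Cre over Ad-GFP (left) and percentage of genes at least 2-fold lower (right) by GC content of the longest transcript, for each pair of libraries. In the tail tip pair the median lies between 0.08 and -0.11 up to 65% GC and at -0.65 above it, where 30.2% of 53 genes were lower; the lung medians run the other way.

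The lower genes of the tail tip pair were set beside the other pairs, which share no library with it. Of the 68 that were also tested in cardiac fibroblasts, 25 were lower there by 2-fold (36.8%, where 7.49% of all cardiac genes were lower). Another 6 were higher (8.82%, where 10.4% of all cardiac genes were). GC content and read level were not held fixed in these shares. Of cardiac genes with 65% GC or more, 38.3% were lower, and of 2607 cardiac genes with 20 to 49 reads, 513 were. Of the 63 lower tail tip genes tested in lung fibroblasts, 3 were lower and 3 higher, where 1.88% and 1.49% of all lung genes were. Of the higher tail tip genes, 38 were tested in lung, with 1 higher (2.63%) and 10 lower (26.3%). Of all lung genes 1.49% were higher and 1.88% lower. The 10 include Scg2, Pcsk2, Ins2, Iapp, Chga and Chgb of the islet list, so this count is not a separate observation from theirs. In cardiac fibroblasts 35 of the higher tail tip genes were tested, with 8 higher and 8 lower (22.9% each). Of all cardiac genes 10.4% were higher and 7.49% lower. Another class of lower genes had identifiers that the reference annotation did not name: 15 of 226 such genes were lower (6.64%), among them ENSMUSG00000121606, with 1073 and 154 reads.

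Lists for programmes that viral vectors, DNA breaks or fibroblast state are known to move are given next as counts and medians. With 1.4% of all genes past 2-fold and 7502 of 15213 below 0, a list with no or 1 member past 2-fold is near the background, and no difference from other genes is read from it. Interferon-stimulated effectors restrict viruses, and the sensors detect foreign nucleic acid. None of 39 effectors and none of 18 sensors passed 2-fold, and 49 of these 57 genes were below 0. Cmpk2, a mitochondrial nucleotide kinase, had 2060 and 1399 reads (-0.62), and Ifi205, a DNA sensor family member, had 95 and 60 (-0.71). The sum over the 57 genes was 7052 CPM with Ad-GFP and 6395 CPM with Ad-Cre, beside 822 and 800 CPM in the lung pair. The macrophage and leukocyte markers moved the same way (15 of 16 below 0, median -0.26, summing to 5646 and 4745 CPM), and their part in the interferon values was not tested. Tlr9, the receptor for unmethylated CpG DNA, was at 29 and 47 reads.

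Targets of p53 respond to DNA breaks. Of 33 tested, 1 was higher by 2-fold, Perp, at 8 and 26 reads, and the median was 0.05. Ccng1, a p53 target and cyclin, had 14473 and 19090 reads (0.33), and Phlda3, an inhibitor of AKT, had 5134 and 3706 (-0.54). Of 25 mitosis genes 23 were below 0, with a median of -0.12, and of 22 replication genes 17 were above 0, with a median of 0.04; none passed 2-fold. Of 20 cytokines and chemokines 12 were above 0 and 8 below, with a median of 0.12 and a lowest value of -0.35. Csf3, the granulocyte colony stimulating factor, was the 1 higher by 2-fold (16 and 37 reads). Il1a, an alarm cytokine, had 46 and 85 reads and Ccl11, the eotaxin gene, 85 and 142. Of 32 immediate early genes Jund alone was lower by 2-fold, with 22 below 0 and a median of -0.12; Klf2, a factor of the Kruppel family, stood at -0.64 and Junb, the AP-1 partner of FOS, at -0.53.

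None of 54 matrix genes of fibroblasts passed 2-fold and their median was -0.05; 12 of 15 collagens were below 0, with a median of -0.08. Mfap4, a microfibril protein, had 44 and 23 reads (-0.94). Of 14 contractile genes 13 were above 0, with a median of 0.09 and none past 2-fold; Acta1, the skeletal actin, had 276 and 460 reads (ratio 1.59, interval 1.37 to 1.85) and Myh11, smooth muscle myosin, 155 and 249 (1.53, interval 1.25 to 1.89). The posterior Hox genes, groups 9 to 13, which mark cells of the tail and hind body, had a median of -0.02 over 11 tested genes and summed to 294 and 277 CPM, against 87.8 and 97.2 CPM in the lung pair and 0.893 and 4.68 CPM in the cardiac pair. The positional label of the cells was thus present in both libraries.

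In energy metabolism the 13 subunits encoded by mitochondrial DNA were all above 0, with a median of 0.23, and mt-Co2 was at 261 and 464 reads (0.76). Their nuclear partners were level, with medians of -0.03 for complex I and -0.02 for complexes II to V. Of 12 genes of the NRF2 and iron response 11 were below 0, with a median of -0.21; Fth1, the ferritin heavy chain, had 97105 and 78003 reads (-0.38). Of 78 cytosolic ribosome genes 64 were below 0, with a median of -0.09. Heat shock genes (median -0.02), unfolded protein and ATF4 genes (0.00), glycolysis and hypoxia genes (0.03) and sterol and fatty acid synthesis genes (0.06) had no member past 2-fold. Sides of 0 in such lists shift together with the scaling of the 2 libraries, and the alternative scalings left the median of all genes at 0.01 or closer to 0.

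**Figure D5:**
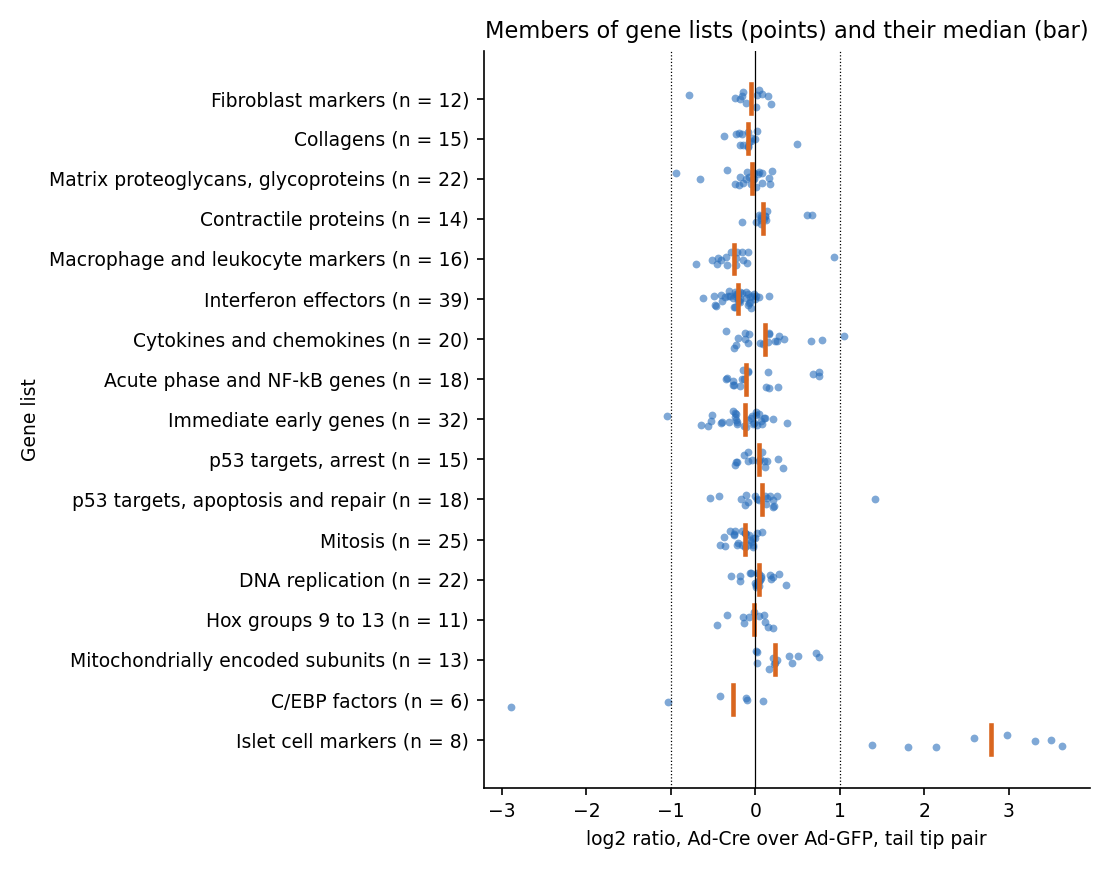
Log2 ratio of Ad-Cre over Ad-GFP in the tail tip pair for each tested member (points) and the median (bar) of 17 gene lists, with dotted lines at 2-fold. All medians lie between -0.27 and 0.23 except that of the islet cell markers, whose 8 tested members all lie above 1, 6 of them having reached 20 reads in the Ad-Cre library only; within the C/EBP factors Cebpb and Cebpd lie below -1.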

How the data were processed

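RNA was measured in 6 mouse fibroblast libraries, and the authors deposited raw read counts for each Ensembl gene, as whole numbers. The submitters' processing notes name STAR 2.0.7 and mm39 without their roles. Counting tool, annotation and strand: not given in the sources used here. Whether the reads of a gene and of its antisense partner were kept apart is therefore not known. The labels' column names refer to a matrix titled for a different subject, so the match rests on those names. Libraries were grouped by the treatment in the labels, 1 to a group.

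Symbols, biotypes, exons and GC content came from GENCODE M21 (GRCm38), where 51884 identifiers were found and 5296 were not; 98.5% of tested genes had these properties. That is another build than the counts, so no coordinates come from it. Libraries were scaled with TMM factors over all 6 (edgeR 4.0.16, R 4.3.3), 1.03 for each tail tip library. Log2 ratios of CPM had a prior count of 2, and intervals are exact conditional binomial (Clopper-Pearson) 95% intervals from scipy 1.17.1, for counting error only. The calculation was tested on simulated counts. No test was made between conditions.

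Named genes are the 15 highest and 15 lowest log2 ratios among genes with at least 50 reads in 1 tail tip library and an ordinary symbol, the 8 largest CPM gains and losses at a log2 ratio of at least 0.5, up to 4 examples of each list, and Gata4. Not all are printed, some are not reported here, and some others are named beside them. The members and the 35 lists were chosen with earlier results of these data known. Alternatives were library totals, TMM over the tail tip pair, DESeq2 1.42.0 size factors, prior counts of 0.5 and 5, and a minimum of 50 reads or none.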

Additional observations from a re-analysis of the deposited data

Results flagged for a closer look

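Genes named by rank in the tail tip pair were compared with the other pairs, and genes past 2-fold in opposite directions are given here as log2 ratios. Each pair has 1 library a group, and the differences between origins were not tested. A set of 6 genes of the islet and granule list were higher with Ad-Cre in tail tip and lower in lung fibroblasts. Scg2 stood at 3.63 in tail tip and -3.02 in lung. Ins2 stood at 3.31 and -3.52, Iapp at 2.59 and -3.31, Chga at 1.80 and -3.12, and Chgb at 1.38 and -1.65. Pcsk2 stood at 3.50 in tail tip, -2.54 in lung and -3.72 in cardiac fibroblasts, where it had 26 reads with Ad-GFP and 0 with Ad-Cre. The pseudogene AC125456.1 stood at 1.35 in tail tip and -1.59 in cardiac fibroblasts.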

How the results depend on the processing

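The counts of genes rested on the read minimum. With a minimum of 50 reads 59 genes were past 2-fold, 10 higher and 49 lower, 14 list genes were past it and 6 genes were opposite in lung, against 213, 88, 125, 22 and 13. With no minimum these were 2156, 1038, 1118, 41 and 252, and the SD was 0.564 against 0.317. With a prior count of 5 the higher genes were 54, and with 0.5 they were 113. The 3 other scalings gave 213 to 221 genes. All 30 genes named by rank kept their direction under the 5 scaling and prior alternatives (150 values), each within the gene's counting interval. TMM over the tail tip pair gives no factor for lung, so that comparison has no value under it. No paired analysis was possible because the tail tip pair has 1 library a group, so none could be left out either; a fit of virus with origin as a block over all 6 libraries asks about an effect common to the origins and was not run here.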
